A study of Homo sapiens with 3 samples.

Results

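The RNAs of the mitochondrial genome were compared in HepG2 cells, a human liver cancer line, in which expected counts of 62680 gene rows had been deposited. The members are the 37 rows whose gene name begins with MT-, and they comprise 13 mRNAs, 2 rRNAs and 22 tRNAs. Cells of WT genotype received A740003 at 20 uM, A438079 at the same dose or PBS alone, each for 48 h. The labels call both compounds P2X7 antagonists and name PBS as the control. P2X7 is a cation channel of the plasma membrane opened by extracellular ATP. All 3 groups grew in DMEM with fetal bovine serum and antibiotics, and the solvent of the compounds is not known here. With 1 library a treatment, differences could not be checked against replicates, and no p-value was computed. HepG2 is a single tumour-derived line, so its mitochondria are not those of a normal liver.

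Human mitochondrial DNA is a small circle with a heavy and a light strand, and each is transcribed as a long precursor by the polymerase POLRMT with the DNA-packaging factor TFAM. Most tRNAs lie between the rRNA and mRNA genes and are cut out of the precursors, which frees the RNAs on either side. The mRNAs encode subunits of the respiratory chain and of ATP synthase, which the ribosomes of the organelle, built on its own 2 rRNAs, translate. Liver cells are rich in mitochondria, and their mRNA-seq libraries usually hold many reads of this genome.

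The 3 libraries held 19735540 expected counts after A740003, 19606723 after A438079 and 19375462 with PBS. Of all rows, 12270 had a mean of at least 1 CPM (a count scaled to library size) over the 3 libraries and were compared, as were 19 of the 37 mitochondrial rows: all 13 mRNAs, both rRNAs and 4 tRNAs. Ratios were taken of counts scaled by TMM, a library-size factor that leaves the average gene unchanged. Each has an exact 95% interval that covers counting error only. A gene was called when its ratio was at least 1.5-fold from 1 and the interval left out 1. The hepatocyte markers ALB (albumin) and AFP (alpha-fetoprotein) had at least 17122 counts in every library. Of 7 markers of other cell types, 6 had rows, with at most 4 counts in any library, and VIM, COL1A1, PTPRC and HBB were at 0 in all 3. Of 11 hepatocyte markers, 5 were below PBS after A740003, with a median log2 ratio of 0.0045, and 4 after A438079, with a median of 0.11. They lay on both sides of PBS: AFP had a ratio of 0.713 (0.699 to 0.727) after A740003 and 0.923 (0.906 to 0.940) after A438079, and APOB, of lipoproteins, had 1.39 (1.38 to 1.40) after A740003 and 1.32 (1.31 to 1.33) after A438079. FGB, a fibrinogen chain, had 0.739 (0.702 to 0.779) after A740003 and 1.11 (1.06 to 1.17) after A438079. TTR, a hormone carrier, had 1.65 (1.26 to 2.17) after A740003 and 1.31 (0.983 to 1.75) after A438079. It had the fewest counts of the 11, with 149 after A740003, 115 after A438079 and 88 with PBS. TTR was the 1 marker called higher after A740003, beside 3.14% of all genes. The part of such differences between the libraries in the mitochondrial ratios was not tested.

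The mitochondrial rows took a smaller part of the antagonist libraries than of the PBS library. They held 8.38% of the counts after A740003 (exact binomial 95% interval 8.37 to 8.39), 9.39% after A438079 (9.37 to 9.40) and 10.34% with PBS (10.32 to 10.35). The 13 mRNAs held 5.78% after A740003, 6.67% after A438079 and 7.04% with PBS. The 2 rRNAs held 2.60% after A740003, 2.72% after A438079 and 3.30% with PBS. All 3 sums were thus lowest after A740003 and highest with PBS. In bulk RNA, fewer cells rich in mitochondria and less mitochondrial RNA per cell cannot be told apart.

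**Figure D1:**
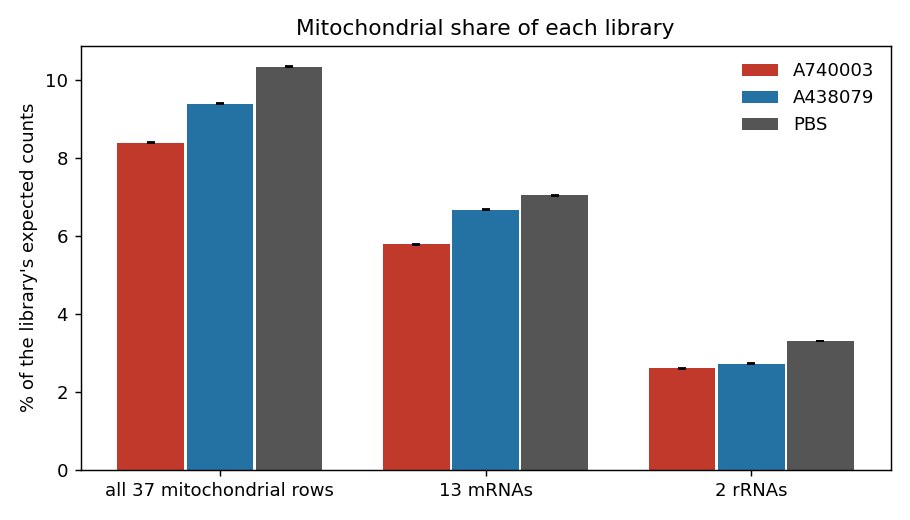
Bars give the percent of each library's expected counts on all 37 mitochondrial rows, on the 13 mRNAs and on the 2 rRNAs for A740003, A438079 and PBS; whiskers are exact 95% binomial intervals (counting error only). In each group the A740003 bar is lowest and the PBS bar highest, with 8.38% after A740003, 9.39% after A438079 and 10.34% with PBS for all rows.

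After scaling, the ratio of A740003 to PBS was 0.817 (0.815 to 0.819) for the mRNA sum and 0.781 (0.779 to 0.784) for the rRNA sum. For A438079 the ratio was 0.961 (0.958 to 0.963) for the mRNA sum and 0.835 (0.832 to 0.838) for the rRNA sum. After A438079 the rRNA sum therefore stood further below PBS than the mRNA sum did, by more than counting error. MT-RNR2 alone made up 90.9% of the rRNA sum after A438079 and 91.6% with PBS. The other rRNA, MT-RNR1, had a ratio of 0.910 after A438079, within the range of the 13 mRNAs, 0.716 to 1.31. Between the antagonists, A740003 over A438079 was 0.850 (0.848 to 0.852) for mRNAs and 0.935 (0.932 to 0.939) for rRNAs.

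By strand, the 12 mRNAs made from the heavy strand summed to a ratio over PBS of 0.818 (0.816 to 0.820) after A740003 and 0.962 (0.960 to 0.964) after A438079. MT-ND6, the 1 mRNA made from the light strand, had 0.675 (0.653 to 0.698) after A740003 and 0.728 (0.704 to 0.752) after A438079. MT-ND6 stood below the heavy-strand sum in both comparisons, but so did the heavy-strand mRNAs MT-ND1 and MT-ND5, described further on. Without known use of strand in the counting, the MT-ND6 row may also hold reads of heavy-strand RNA opposite it. Its ratios therefore cannot be read as a result on the light strand alone. The 2 antagonist comparisons share the PBS library, so a deviation of that library enters both.

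Of the 13 mRNAs, 12 had a scaled count below PBS after A740003, with intervals that left out 1, against 49.8% of all genes with a ratio under 1. Their median log2 ratio was -0.33, against 0.0010 over all genes tested. At the fold of 1.5, 2 of the 13 were called lower, MT-ND1 and MT-ND5, beside a background of 10.7% of genes called lower. None was called higher, where the background was 3.14%. After A438079, 7 of the 13 stood below PBS and 6 above, beside 50.5% of all genes below. The median log2 ratio was -0.08, against -0.0036 over all genes. None of the 13 was called lower or higher after A438079, beside 9.44% of genes called lower and 1.63% called higher. Between the compounds, all 13 mRNAs had a ratio of A740003 to A438079 below 1, with a range of 0.707 to 0.927 and a median log2 ratio of -0.22. The share of all genes below 1 there was 50.8%, and their median was -0.0035. None of the 13 was called in that comparison, beside 2.81% of genes called lower and 2.44% higher. The 13 are cut from shared precursors and are not independent of each other.

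**Figure D2:**
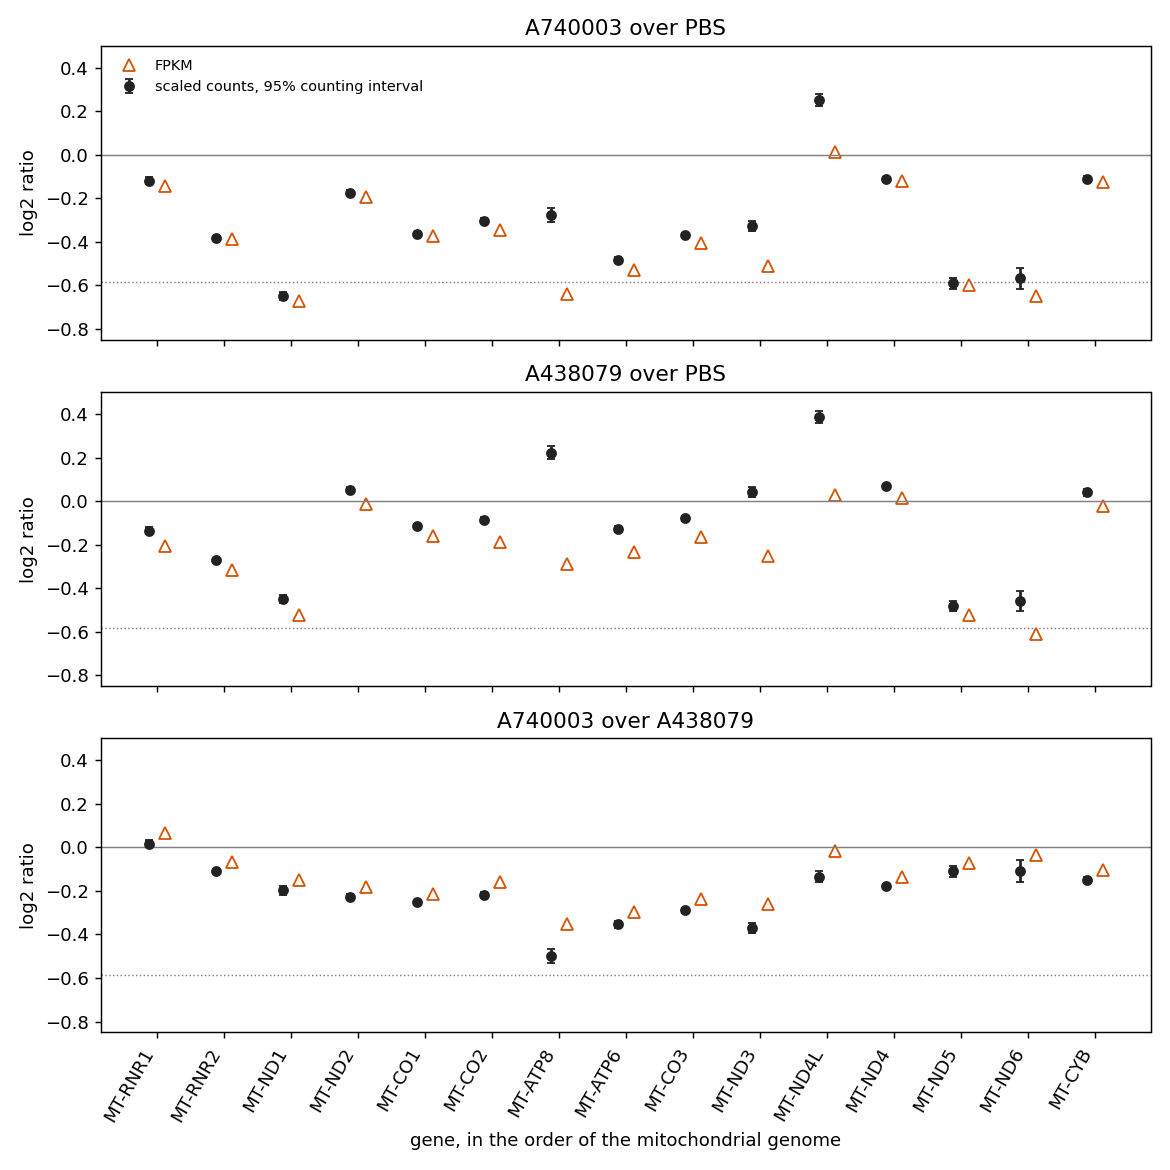
Log2 ratios of the 13 mRNAs and 2 rRNAs in genome order, for A740003 over PBS, A438079 over PBS and A740003 over A438079 from top to bottom. Black points are scaled counts with 95% counting intervals, open triangles are ratios of the deposited FPKM, the solid line is a ratio of 1 and the dotted line is 1.5-fold lower. MT-ND1, MT-ND5 and MT-ND6 are the lowest black points of the upper 2 panels, and the triangles of MT-ATP8, MT-ND3 and MT-ND4L lie below their points there.

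Among the rRNAs, MT-RNR1 and MT-RNR2 encode the RNAs of the small and the large subunit of the mitochondrial ribosome (chrM:648-1601 and chrM:1671-3229). Positions on the mitochondrial genome are from GENCODE release 29, on GRCh38. MT-RNR1 had 50674 counts after A740003, 48727 after A438079 and 53635 with PBS. Its ratio over PBS was 0.922 (0.910 to 0.933) after A740003 and 0.910 (0.899 to 0.922) after A438079, and the antagonists did not differ beyond counting error (1.01, 0.9999 to 1.02). MT-RNR2 was the most counted mitochondrial row, with 461615 counts after A740003, 484419 after A438079 and 585870 with PBS. The ratio of MT-RNR2 over PBS was 0.769 (0.766 to 0.772) after A740003 and 0.828 (0.825 to 0.832) after A438079. The large-subunit RNA therefore stood further below PBS than the small-subunit RNA in both antagonist libraries. Per library, MT-RNR2 had 9.11 counts for each MT-RNR1 count after A740003 (9.03 to 9.19), 9.94 after A438079 (9.85 to 10.03) and 10.92 with PBS (10.83 to 11.02). This order does not depend on how the libraries are scaled. 

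Complex I, NADH dehydrogenase, takes 7 of the mRNAs, which as a sum had a ratio over PBS of 0.862 (0.859 to 0.866) after A740003 and 0.989 (0.986 to 0.993) after A438079. MT-ND1 (chrM:3307-4262) encodes a membrane subunit at the junction with the peripheral arm and is the first mRNA after the rRNAs. It had 36538 counts after A740003, 40765 after A438079 and 55823 with PBS. Its ratio over PBS was 0.638 (0.630 to 0.647) after A740003, the lowest of the 13 mRNAs, and 0.732 (0.722 to 0.741) after A438079. MT-ND2 (chrM:4470-5511), also a membrane subunit and the next mRNA along the genome, had 125343 counts after A740003, 142853 after A438079 and 137958 with PBS. The ratio of MT-ND2 over PBS was 0.886 (0.879 to 0.893) after A740003 and 1.04 (1.03 to 1.05) after A438079. The neighbours MT-ND1 and MT-ND2 differed in ratio although both come from the heavy strand. Their ratio within a library, MT-ND1 to MT-ND2, was 0.292 after A740003 (0.288 to 0.295), 0.285 after A438079 (0.282 to 0.289) and 0.405 with PBS (0.401 to 0.409).

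MT-ND5 (chrM:12337-14148) encodes one of the proton-pumping subunits and is the longest of the mRNA rows. It had 24471 counts after A740003, 25691 after A438079 and 35941 with PBS. The ratio of MT-ND5 over PBS was 0.664 (0.653 to 0.675) after A740003 and 0.716 (0.705 to 0.728) after A438079. Its neighbour MT-ND6 (chrM:14149-14673, read from the other strand) encodes a further membrane subunit of complex I. MT-ND6 had 5844 counts after A740003, 6136 after A438079 and 8448 with PBS. Both rows stood at similar levels in the 2 antagonist libraries and higher in the PBS library. MT-ND5 had 4.19 counts for each MT-ND6 count after A740003 (4.07 to 4.31), 4.19 after A438079 (4.07 to 4.31) and 4.25 with PBS (4.16 to 4.36), which did not differ beyond counting error. The 2 genes lie end to end on opposite strands, and the MT-ND5 mRNA is known to run on past its stop codon across the stretch opposite MT-ND6. The use of strand in the counting is not known here, so reads of MT-ND6 and of the RNA opposite it cannot be told apart.

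The contrast in base composition between the strands shows in the first 60 bases of each of these coding sequences, printed as the RNA's sense strand in DNA letters with every G in capitals (GENCODE release 29; chrM:12337-12396 on the plus strand and chrM:14614-14673 on the minus strand).
MT-ND5: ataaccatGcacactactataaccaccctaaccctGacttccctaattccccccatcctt
MT-ND6: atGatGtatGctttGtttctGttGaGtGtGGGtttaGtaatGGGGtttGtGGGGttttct
Over its whole length MT-ND6 is 35.6% G and 7.05% C, and MT-ND5 is 10.6% G and 34.3% C. The other 11 mRNA rows lie between 6.28% and 16.2% G. In total GC the 2 rows are close, at 44.9% for MT-ND5 and 42.7% for MT-ND6. A link between base content and the ratios was not tested.

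MT-ND4 (chrM:10760-12137), another proton-pumping subunit, had 202380 counts after A740003, 222746 after A438079 and 212964 with PBS. Its ratio over PBS was 0.927 (0.921 to 0.933) after A740003 and 1.05 (1.04 to 1.05) after A438079. MT-ND3 (chrM:10059-10404), a small subunit at the joint of the complex, had 25874 counts after A740003, 32544 after A438079 and 31673 with PBS. The ratio of MT-ND3 over PBS was 0.797 (0.784 to 0.810) after A740003 and 1.03 (1.01 to 1.05) after A438079. MT-ND4L (chrM:10470-10766), a small membrane subunit, had 23181 counts after A740003, 24785 after A438079 and 18983 with PBS. It was the 1 mRNA whose scaled count was above PBS after A740003, at 1.19 (1.17 to 1.21), and its ratio after A438079 was the highest of the 13, at 1.31 (1.28 to 1.33). That excess over PBS is nearly gone in FPKM, as described with the transcript lengths further on.

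Complex III takes 1 mitochondrial mRNA, MT-CYB (chrM:14747-15887), which encodes cytochrome b. It had 69623 counts after A740003, 75177 after A438079 and 73290 with PBS. Its ratio over PBS was 0.927 (0.917 to 0.936) after A740003 and 1.03 (1.02 to 1.04) after A438079. MT-CYB and MT-ND4 were the mRNAs over 400 nt nearest to PBS after A740003.

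Complex IV, cytochrome c oxidase, takes MT-CO1, MT-CO2 and MT-CO3, which encode its catalytic core. MT-CO1 (chrM:5904-7445) had 295882 counts after A740003, 343048 after A438079 and 371659 with PBS. MT-CO2 (chrM:7586-8269) had 132921 counts after A740003, 150411 after A438079 and 159878 with PBS. MT-CO3 (chrM:9207-9990) had 126370 counts after A740003, 150323 after A438079 and 159163 with PBS. All 3 were lowest after A740003 and highest with PBS, in close proportion. Their ratios over PBS ran from 0.774 for MT-CO3 to 0.811 for MT-CO2 after A740003, and from 0.925 for MT-CO1 to 0.946 for MT-CO3 after A438079. The sum of the 3 had a ratio of 0.784 (0.781 to 0.787) after A740003 and 0.934 (0.931 to 0.937) after A438079.

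Complex V, ATP synthase, takes MT-ATP8 and MT-ATP6 (chrM:8366-8572 and chrM:8527-9207), which encode membrane subunits and are translated from 1 shared mRNA. MT-ATP8 had 12654 counts after A740003, 17415 after A438079 and 14946 with PBS. MT-ATP6 had 60432 counts after A740003, 75193 after A438079 and 82368 with PBS. The ratio over PBS after A740003 was 0.826 (0.806 to 0.846) for MT-ATP8 and 0.716 (0.708 to 0.723) for MT-ATP6. After A438079 it was 1.17 (1.14 to 1.19) for MT-ATP8 and 0.915 (0.906 to 0.924) for MT-ATP6. The 2 reading frames of 1 mRNA thus gave counts on opposite sides of PBS in the A438079 library. The sum of both had a ratio of 0.733 (0.726 to 0.740) after A740003 and 0.953 (0.945 to 0.962) after A438079. Between the antagonists, complex V had the lowest sum ratio of the 4 complexes, A740003 over A438079 being 0.768 (0.761 to 0.776).

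The rows of such pairs share bases, so a read there fits both. The junctions are shown on the plus strand (GENCODE release 29; chrM:8507-8592 and chrM:10740-10786), with the bases held by both rows in capitals and 20 further bases on each side.
MT-ATP8 and MT-ATP6: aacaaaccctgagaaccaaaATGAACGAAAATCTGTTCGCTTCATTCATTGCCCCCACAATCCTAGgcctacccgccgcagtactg
MT-ND4L and MT-ND4: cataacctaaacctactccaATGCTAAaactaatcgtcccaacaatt
The first pair shares 46 bases, from the start codon of MT-ATP6 to the stop codon of MT-ATP8, and the second shares 7. Summed over the second pair, which is also 1 mRNA, the ratio over PBS was 0.949 (0.943 to 0.954) after A740003 and 1.07 (1.06 to 1.08) after A438079.

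Levels between genes were compared as FPKM, the authors' deposited counts per kilobase of effective length and per library size. MT-ATP8 had the highest FPKM in every library, at 36016 after A740003, 46014 after A438079 and 56149 with PBS. Its counts are there divided by a very short effective length, 13.7 nt with PBS and at most 19.3 nt, as described further on. In FPKM it was 4.95 times MT-ATP6 after A740003, 5.15 times after A438079 and 5.35 times with PBS. Since both rows lie on 1 shared mRNA, the rank of MT-ATP8 cannot be read as the abundance of its RNA. MT-RNR2 followed at 18012 FPKM after A740003 (rank 3), 18900 after A438079 (rank 2) and 23570 with PBS (rank 2). At the low end, MT-ND5 was last of the 15 in every library, at 799 FPKM after A740003, 840 after A438079 and 1208 with PBS. MT-ND6 was next to last, at 1113 FPKM after A740003, 1140 after A438079 and 1741 with PBS. MT-ND1 had 2662 FPKM after A740003, 2952 after A438079 and 4238 with PBS. The 3 mRNAs of lowest FPKM in each library were therefore MT-ND1, MT-ND5 and MT-ND6, the same 3 that had the lowest count ratios over PBS. The order of the other rows changed little. MT-ND4L, a short row under the same limit as MT-ATP8, moved most. It had rank 2 after A740003 and rank 3 after A438079, against rank 5 with PBS. FPKM has no counting interval here and neighbours in rank cannot be tested with 1 library.

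**Figure D3:**
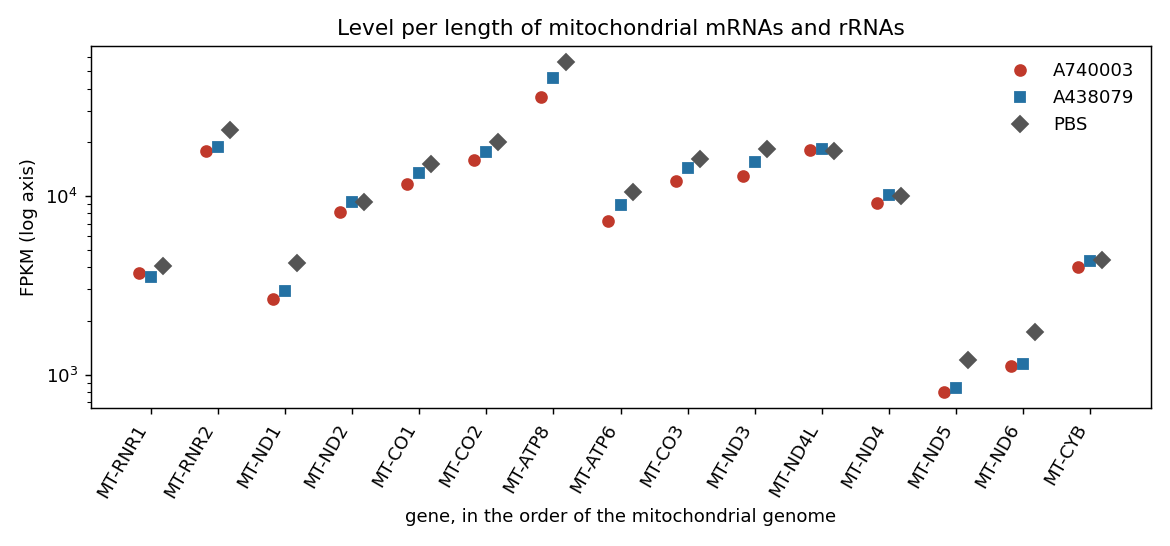
FPKM (log axis) of the 13 mRNAs and 2 rRNAs in genome order in the A740003, A438079 and PBS libraries. MT-ATP8 is highest and MT-ND5 lowest in every library, and the PBS points of MT-ND1, MT-ND5 and MT-ND6 lie clearly above both antagonist points.

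In FPKM the mRNAs stood lower against PBS than in scaled counts. After A740003, 12 of 13 had an FPKM ratio under 1, beside 51.5% of all genes, with a median log2 of -0.40. At least 1.5-fold lower in FPKM were 4 of 13 (MT-ND1, MT-ATP8, MT-ND5 and MT-ND6), beside 12.7% of all genes with no interval asked. After A438079, 11 of 13 had an FPKM ratio under 1, beside 56.3% of all genes, with a median log2 of -0.19. At least 1.5-fold lower there was MT-ND6 alone, at 0.655, beside 12.4% of all genes. For A740003 over A438079, 13 of 13 were under 1 beside 44.5% of all genes, with a median log2 of -0.16.

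The gap between counts and FPKM was large in 3 short rows, MT-ATP8 (207 nt), MT-ND4L (297 nt) and MT-ND3 (346 nt). The deposited counts and FPKM together imply an effective length for each row, the number of places where a fragment can start. In the 11 mRNA and rRNA rows of at least 681 nt, the annotated length exceeded the effective length by a constant in each library. Its median was 260 nt after A740003, 252 nt after A438079 and 276 nt with PBS, a value that follows the fragment length of a library. For MT-ATP8 the effective length was 17.8 nt after A740003, 19.3 nt after A438079 and 13.7 nt with PBS. For MT-ND4L it was 64.9 nt after A740003, 69.1 nt after A438079 and 54.6 nt with PBS. The short rows thus had more room for a fragment in both antagonist libraries than in the PBS library, and the relative difference shrank with length. For MT-ND6 (525 nt) the effective length was 266 nt after A740003, 275 nt after A438079 and 250 nt with PBS. For MT-ATP6 (681 nt) it was 421 nt after A740003, 429 nt after A438079 and 405 nt with PBS.

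**Figure D4:**
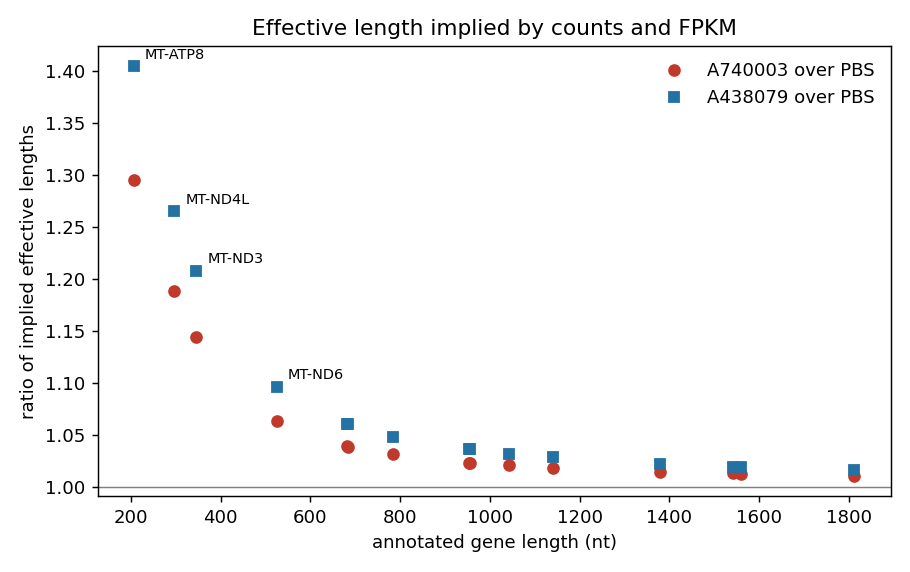
Ratio of implied effective lengths, A740003 over PBS and A438079 over PBS, against the annotated length in nt of the 13 mRNA and 2 rRNA rows. The ratio is nearest to 1 in the longest rows and climbs steeply in MT-ND3, MT-ND4L and MT-ATP8.

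In FPKM, MT-ND4L had a ratio over PBS of 1.01 after A740003 and 1.02 after A438079, where the scaled counts gave 1.19 after A740003 and 1.31 after A438079. MT-ATP8 had an FPKM ratio of 0.641 after A740003 and 0.820 after A438079, where the scaled counts gave 0.826 after A740003 and 1.17 after A438079. MT-ND3 had an FPKM ratio of 0.701 after A740003 and 0.841 after A438079. Scaled counts divided by effective length gave 0.831 for MT-ATP8 and 0.853 for MT-ND3 after A438079, so the side of PBS on which both lie depends on whether length is taken into account. MT-ND2 and MT-CYB, long rows whose A438079 ratios were near 1, also crossed in FPKM, at 0.992 for MT-ND2 and 0.986 for MT-CYB. Scaled counts divided by effective length left MT-ND2 above 1, at 1.005, and put MT-CYB at 0.9995. Short nuclear genes moved in the same direction: 19 with an effective length under 100 nt in the PBS library had a median log2 count ratio over PBS of 0.18 after A740003 and 0.29 after A438079. Their median log2 FPKM ratio was -0.06 after A740003 and -0.0083 after A438079. Among the 12019 nuclear genes over 300 nt, the median log2 count ratio was 0.00033 after A740003 and -0.0047 after A438079. The 10 mRNAs over 400 nt, which this touches less than the short rows, had a median log2 count ratio of -0.37 after A740003, with 10 of 10 below 1. After A438079 that median was -0.10, with 7 of 10 below 1. MT-ND6, which is among the 10, had 0.664 per effective length after A438079, past the fold, against 0.728 in scaled counts. MT-ND1 and MT-ND5 are among the long rows, and their FPKM ratios over PBS after A740003 were 0.628 for MT-ND1 and 0.662 for MT-ND5. After A438079 they were 0.697 for MT-ND1 and 0.695 for MT-ND5.

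A row's share of the summed mRNA counts does not depend on the scaling between libraries. MT-ND1 made up 3.20% of that sum after A740003 (3.17 to 3.23), 3.12% after A438079 (3.09 to 3.15) and 4.10% with PBS (4.06 to 4.13). MT-ND5 made up 2.14% after A740003, 1.97% after A438079 and 2.64% with PBS, and MT-ND6 made up 0.512% after A740003, 0.469% after A438079 and 0.620% with PBS. In the other direction, MT-ND4 made up 17.7% after A740003 (17.7 to 17.8), 17.0% after A438079 (17.0 to 17.1) and 15.6% with PBS (15.6 to 15.7). MT-CYB made up 6.10% after A740003, 5.75% after A438079 and 5.38% with PBS. MT-CO1, the largest share, was 25.9% after A740003, 26.2% after A438079 and 27.3% with PBS. MT-ND2 made up 11.0% after A740003, 10.9% after A438079 and 10.1% with PBS, and the short row MT-ND4L 2.03%, 1.90% and 1.39%. MT-ATP6 made up 5.29% after A740003, 5.75% after A438079 and 6.04% with PBS, and MT-CO3 11.1%, 11.5% and 11.7%. In both antagonist libraries the mRNA pool thus held less MT-ND1, MT-ND5, MT-ND6, MT-CO1, MT-ATP6 and MT-CO3 than in the PBS library, beyond counting error. It held more MT-ND4, MT-CYB, MT-ND2 and MT-ND4L. MT-CO2, MT-ATP8 and MT-ND3 did not move the same way in both beyond counting error.

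Mitochondrial tRNAs are short, carry no poly(A) tail, and are hardly caught in libraries of this kind. The 22 rows, of 59 to 75 nt, held 252 counts after A740003, 257 after A438079 and 297 with PBS, and all 22 were listed at 0 FPKM. Their sum had a ratio over PBS of 0.828 (0.697 to 0.982) after A740003 and 0.867 (0.731 to 1.03) after A438079. Each row is far shorter than the 252 to 276 nt between annotated and effective length, so few fragments fit within it. The share of such short fragments may differ between the libraries, and its part in the tRNA ratios was not tested. This limit holds for every tRNA ratio, call and CPM bound given here. The counts lay mostly on tRNAs of the light strand: its 8 genes held 222 counts after A740003, 236 after A438079 and 288 with PBS. The 14 tRNAs of the heavy strand held 30 counts after A740003, 21 after A438079 and 9 with PBS. The light-strand sum had a ratio over PBS of 0.752 (0.628 to 0.899) after A740003 and 0.821 (0.688 to 0.979) after A438079. The heavy-strand sum had a ratio of 3.25 (1.51 to 7.79) after A740003 and 2.34 (1.03 to 5.80) after A438079, from few counts. The single row MT-TF gave 15 of these counts after A740003, 8 after A438079 and 2 with PBS. Each light-strand tRNA is flanked or faced by heavy-strand transcripts, and without strand in the counting, reads of uncut heavy-strand RNA cannot be told apart from reads of these tRNAs.

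The 6 tRNA rows with at least 10 counts in any library are shown as the reference tRNA gene in sense (GENCODE release 29), since they carry nearly all of this signal. Capitals mark bases that also belong to a neighbouring row. Their positions are chrM:577-647 for MT-TF on the plus strand and, on the minus strand, chrM:4329-4400 for MT-TQ, chrM:5587-5655 for MT-TA, chrM:5657-5729 for MT-TN, chrM:5826-5891 for MT-TY and chrM:7446-7514 for MT-TS1.
MT-TF: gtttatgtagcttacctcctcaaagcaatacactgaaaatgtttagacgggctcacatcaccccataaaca
MT-TQ: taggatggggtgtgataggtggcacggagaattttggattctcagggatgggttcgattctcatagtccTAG
MT-TA: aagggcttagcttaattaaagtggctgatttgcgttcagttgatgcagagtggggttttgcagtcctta
MT-TN: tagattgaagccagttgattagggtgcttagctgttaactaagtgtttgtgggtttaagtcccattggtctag
MT-TY: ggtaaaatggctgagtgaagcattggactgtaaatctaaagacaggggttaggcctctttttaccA
MT-TS1: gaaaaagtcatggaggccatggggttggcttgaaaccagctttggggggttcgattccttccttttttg
MT-TA, the alanine tRNA, had 104 counts after A740003, 92 after A438079 and 107 with PBS, with ratios over PBS of 0.948 (0.717 to 1.254) after A740003 and 0.861 (0.645 to 1.15) after A438079. MT-TS1, a serine tRNA that lies opposite the tail of the MT-CO1 mRNA, had 53 counts after A740003, 83 after A438079 and 82 with PBS. The ratio of MT-TS1 was 0.630 (0.438 to 0.901) for A740003 over PBS and 0.622 (0.432 to 0.888) for A740003 over A438079. MT-TN, the asparagine tRNA, had 32 counts after A740003, 34 after A438079 and 55 with PBS, and ratios over PBS of 0.568 (0.355 to 0.893) after A740003 and 0.619 (0.392 to 0.967) after A438079. MT-TQ, the glutamine tRNA, had 22 counts after A740003, 17 after A438079 and 21 with PBS. These 4 tRNAs were the ones that passed the filter. By the rule of 1.5-fold, MT-TN and MT-TS1 were called lower for A740003 over PBS, MT-TN for A438079 over PBS and MT-TS1 for A740003 over A438079. Over all genes, 10.7%, 9.44% and 2.81% were called lower in these comparisons, and 4 rows are too few to set against those shares.

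MT-TY, the tyrosine tRNA, had 6 counts after A740003, 3 after A438079 and 15 with PBS, with ratios over PBS of 0.390 (0.124 to 1.06) after A740003 and 0.2004 (0.0372 to 0.708) after A438079. MT-TF, the phenylalanine tRNA at the start of the heavy-strand transcript and next to MT-RNR1, had 15 counts after A740003, 8 after A438079 and 2 with PBS. Its ratio over PBS was 7.32 (1.70 to 65.9) after A740003 and 4.01 (0.7998 to 38.7) after A438079. The other 16 tRNA rows had at most 5 counts in any library. MT-TD, MT-TK, MT-TG and MT-TR were at 0 in all 3 libraries, which allows up to 0.152 CPM after A740003, 0.153 CPM after A438079 and 0.155 CPM with PBS (3 counts in a library, counting error only).

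**Figure D5:**
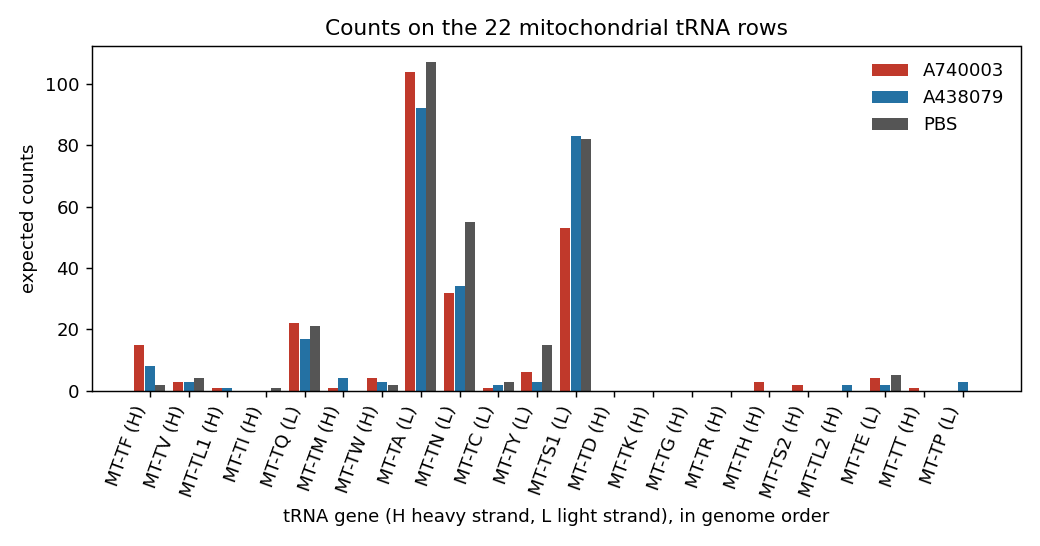
Expected counts on the 22 mitochondrial tRNA rows in genome order for A740003, A438079 and PBS, with H and L for genes of the heavy and the light strand. MT-TA, MT-TS1 and MT-TN, all of the light strand, are the tallest, and MT-TF is the 1 heavy-strand row with at least 10 counts.

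Nuclear DNA holds old copies of mitochondrial genes, and reads that fit both can be split between them. The table has 404 rows named as such copies, of which 7 had at least 10 counts in any library. They summed to 7245 counts after A740003, 9212 after A438079 and 8717 with PBS, which relative to the mitochondrial counts is 0.438% after A740003, 0.501% after A438079 and 0.435% with PBS. Expected counts were not whole in 10 of the 37 mitochondrial rows, while MT-RNR2, MT-ND3, MT-ND4L, MT-ND5 and MT-CYB were whole within 0.005. MTATP6P1, a copy of MT-ATP6 on chromosome 1, had 5289 counts after A740003, 6958 after A438079 and 6405 with PBS. It matches MT-ATP6 at 671 of 681 bases (98.5%). An 80-base stretch shows how few places tell them apart (GENCODE release 29; chrM:8647-8726 and chr1:633816-633895, plus strand), with the bases that differ in capitals.
MT-ATP6: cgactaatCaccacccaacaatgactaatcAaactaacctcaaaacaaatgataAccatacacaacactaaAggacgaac
MTATP6P1: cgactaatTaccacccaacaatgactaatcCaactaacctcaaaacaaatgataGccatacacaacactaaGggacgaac
Counted from the first base of MT-ATP6, and with its base first, the 4 differences are C129T, A151C, A175G and A192G. With the copy added, MT-ATP6 had a ratio over PBS of 0.722 (0.715 to 0.729) after A740003 and 0.927 (0.918 to 0.936) after A438079. The first lay inside the counting interval of MT-ATP6 alone (0.708 to 0.723). The second lay just above it (0.906 to 0.924). MTCO1P12, which matches MT-CO1 at 98.6% of bases, had 1335 counts after A740003, 1562 after A438079 and 1691 with PBS. MTND2P28, at 98.4% identity with MT-ND2, had 413 counts after A740003, 478 after A438079 and 382 with PBS. MTND6P3, at 89.0% identity with MT-ND6, had 66 counts after A740003, 88 after A438079 and 97 with PBS. Adding these moved the ratios of MT-CO1, MT-ND2 and MT-ND6 by less than their counting intervals.

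The nuclear genes that copy and transcribe mitochondrial DNA were mostly within 1.5-fold of PBS. All 20 of a list of them were tested. After A740003, 14 were below PBS with a median log2 of -0.09, beside 49.8% of all genes below. Called lower were 2 and higher 0, near the background of 10.7% lower and 3.14% higher. After A438079, 11 were below PBS with a median of -0.03, beside 50.5% of all genes, and 0 were called, beside 9.44% lower and 1.63% higher. POLRMT, the mitochondrial RNA polymerase, had 334 counts after A740003, 405 after A438079 and 523 with PBS, with ratios over PBS of 0.623 (0.541 to 0.716) after A740003 and 0.776 (0.680 to 0.885) after A438079. TOP3A, a topoisomerase that separates mitochondrial DNA molecules, had 403 counts after A740003, 483 after A438079 and 621 with PBS. POLRMT and TOP3A are the 2 called lower after A740003. The POLRMT transcript is rich in GC, 66.3% against a median of 47.5% over 11906 genes, and the tested genes nearest to it in GC content and length had a median log2 ratio over PBS of -0.98 after A740003 and -0.77 after A438079. With that median subtracted, the log2 ratio of POLRMT was 0.30 after A740003 and 0.41 after A438079, on the other side of PBS. The same step put TOP3A at a ratio of 0.698 after A740003, against 0.633 (0.557 to 0.719) in scaled counts. That is inside its counting interval but short of the fold, so neither call held in this step. In FPKM both stayed past the fold after A740003, at 0.543 for POLRMT and 0.657 for TOP3A. TFAM, which packages mitochondrial DNA and starts its transcription, had 5401 counts after A740003, 5655 after A438079 and 5412 with PBS. Its ratio over PBS was 0.973 (0.937 to 1.01) after A740003 and 1.05 (1.01 to 1.09) after A438079. With the trend removed, TFAM was at 0.859 after A740003 and 0.929 after A438079, below PBS in both. POLG, the DNA polymerase, had ratios of 0.671 (0.538 to 0.835) after A740003 and 0.762 (0.615 to 0.944) after A438079. With the trend removed, POLG was nearer to PBS, at 0.920 after A740003 and 0.982 after A438079. Its FPKM ratios were 0.867 after A740003 and 0.827 after A438079. TFB1M, an rRNA methyltransferase, had ratios of 0.805 (0.750 to 0.864) after A740003 and 0.914 (0.853 to 0.978) after A438079.

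Genes that process, modify and degrade mitochondrial RNA stood slightly above PBS as a list in scaled counts. The GC and length trend was removed for single genes only, not from the list medians. Of 41 tested, 15 were below PBS after A740003, with a median log2 of 0.08 and 0 called. After A438079, 16 were below PBS, with a median of 0.07, and 2 were called lower and 0 higher. The share of all genes below PBS was 49.8% after A740003 and 50.5% after A438079, and 9.44% of all genes were called lower after A438079, so 2 of 41 is under the background. These 2 were GTPBP3, which modifies tRNAs and had 102 counts after A438079 against 167 with PBS (0.612, 0.474 to 0.788), and MRM1, an rRNA methyltransferase with 58 after A438079 against 88 with PBS (0.660, 0.466 to 0.930). With the GC and length trend removed, their ratios were 0.773 for GTPBP3 and 0.771 for MRM1, both short of the fold. In FPKM their ratios after A438079 stayed past the fold, at 0.658 for GTPBP3 and 0.610 for MRM1. LRPPRC and SLIRP form the complex that stabilises mitochondrial mRNAs. LRPPRC had 14826 counts after A740003, 14019 after A438079 and 12331 with PBS, with ratios over PBS of 1.17 (1.15 to 1.20) after A740003 and 1.14 (1.11 to 1.17) after A438079. SLIRP had 1103 counts after A740003, 963 after A438079 and 947 with PBS, with ratios of 1.14 (1.04 to 1.24) after A740003 and 1.02 (0.930 to 1.12) after A438079. Both were above PBS in count after A740003, where 12 of 13 mRNAs were below, and a link between these was not tested. With the trend removed, LRPPRC was nearer to PBS, at 1.049 after A740003 and 1.043 after A438079. SLIRP was then at 1.20 after A740003 and 1.045 after A438079. In FPKM, SLIRP was at 1.035 after A740003 and 0.868 after A438079, and LRPPRC at 1.114 and 1.076. NSUN3, which modifies the methionine tRNA, had ratios of 1.37 (1.14 to 1.65) after A740003 and 1.12 (0.919 to 1.35) after A438079, and DHX30, an RNA helicase, 0.795 (0.720 to 0.878) after A740003 and 0.743 (0.672 to 0.823) after A438079. With the trend removed, DHX30 lay on the other side of PBS, at 1.12 after A740003 and 1.03 after A438079.

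Of 10 regulators of mitochondrial biogenesis 9 were tested. After A740003, 4 were below PBS, and 2 were called lower and 0 higher, with a median log2 of 0.07. After A438079, 3 were below PBS, and 1 was called lower and 0 higher, with a median of 0.08. Over all genes, 10.7% were called lower after A740003 and 9.44% after A438079, and 9 genes are too few to set against those shares. PPRC1, a coactivator of the PGC-1 family, had 254 counts after A740003, 264 after A438079 and 399 with PBS, with ratios over PBS of 0.621 (0.528 to 0.729) after A740003 and 0.663 (0.565 to 0.776) after A438079. With the trend removed they were 0.817 after A740003 and 0.844 after A438079, and both calls ended. In FPKM they stayed past the fold, at 0.598 after A740003 and 0.624 after A438079. YY1, a transcription factor with targets among mitochondrial genes, had 821 counts after A740003, 991 after A438079 and 1224 with PBS, with ratios of 0.654 (0.598 to 0.715) after A740003 and 0.811 (0.745 to 0.883) after A438079. With the trend removed, YY1 was at 0.651 after A740003, still past the fold. PPARGC1A, the best known coactivator of mitochondrial biogenesis, had 358 counts after A740003, 316 after A438079 and 243 with PBS. Its ratios over PBS were 1.44 (1.22 to 1.70) after A740003 and 1.30 (1.10 to 1.55) after A438079, short of the fold. PPARGC1B had 39 counts after A740003, 28 after A438079 and 23 with PBS, too few to set its ratio of 1.65 (0.964 to 2.90) after A740003 apart from 1. Members of this list thus lay on both sides of PBS.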

How the data were processed

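The authors deposited expected counts per gene, which are estimates that need not be whole, and FPKM per gene, scaled by the authors for effective length and library size. Libraries were made from total RNA with a SMARTer mRNA-seq kit, per the labels' protocols. The submitters' processing notes name GRCm38, a mouse build, but the gene rows are human, and the build behind the counts is unclear. Neither aligner nor counter nor use of strand is given in the sources used here.

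For the ratios, expected counts were rounded. The 116 rows without an Ensembl identifier held 0.0791% (A740003), 0.0775% (A438079) and 0.0853% (PBS) of counts and stayed in the totals. TMM factors from edgeR 4.0.16 (R 4.3.3) were 1.01, 0.989 and 1.00. A CPM of 1 was 19.4 to 19.9 counts. Ratios have exact conditional binomial (Clopper-Pearson) 95% intervals, and log2 ratios a pseudocount of 0.5 counts. PCR duplicates were not marked by molecular identifiers, so intervals cover counting error only. The steps were tested on simulated data.

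All mRNA and rRNA rows were named, tRNAs with at least 10 counts, up to 4 tested members of each list of nuclear genes, hepatocyte markers included, with the largest absolute log2 ratio over PBS, POLRMT, TFAM, LRPPRC, SLIRP, and the 4 nuclear copies with the highest mean count. ALB and the cell type markers at 0 were named after their values were seen. PBS effective lengths grouped nuclear genes at 100 and 300 nt. The members and lists were chosen with earlier results of these data known. Genes, positions, sequences and GC content came from GENCODE release 29 by identifier, with GC content and length for 97.0% of tested genes. Alternatives were DESeq2 1.42.0 size factors, total counts, upper quartile scaling, TMM over nuclear genes, unrounded counts, FPKM with pseudocounts of 0.1 and 1, other filters and folds, and removal of a GC and length trend.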

Additional observations from a re-analysis of the deposited data

How the results depend on the processing

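For A740003 over PBS, the median log2 ratio of the mRNAs, -0.33, stayed below 0 in every alternative. It was -0.27 with upper quartile scaling and after removal of the GC and length trend, -0.40 in FPKM with either pseudocount, -0.41 for scaled counts divided by effective length, and -0.37 over the 10 mRNAs over 400 nt. The count of mRNAs called lower, 2, was 1 with total counts, DESeq2 size factors or upper quartile scaling. It was 4 in FPKM or per effective length, 7 at the lower alternative fold, beside 16.8% of all genes, and 0 at a fold of 2, beside 5.46%. For A438079 over PBS, the median of -0.08 was -0.10 with total counts, -0.03 with upper quartile scaling, -0.19 in FPKM, -0.051 with the trend removed, -0.17 per effective length and -0.10 over the 10 mRNAs over 400 nt. The count of 0 called lower was 1 in FPKM or per effective length and 3 at the lower fold, beside 1842 of 12270 genes. For A740003 over A438079, the median of -0.22 was -0.19 with total counts, with the trend removed or per effective length, and -0.16 in FPKM, and the count of 0 was 3 at the lower fold, beside 5.96% of all genes. Of 540 values of single mitochondrial rows under other settings, 11 crossed 1, all for A438079 over PBS and in FPKM or per effective length. With the trend removed, the ratio of POLRMT over PBS was 1.23 after A740003 and 1.33 after A438079, DHX30 and TFAM (after A438079) also crossed 1, and the calls of TOP3A, GTPBP3, MRM1 and PPRC1 ended. In FPKM, POLRMT, TOP3A, GTPBP3, MRM1 and PPRC1 stayed past the fold where they had been called. The cause of the shifts between settings was not tested, except that effective lengths differ between the libraries. Division by effective length, addition of nuclear copies, the subset over 400 nt and the trend step on nuclear genes were chosen after seeing the data. No paired analysis was possible because each treatment had 1 library. Depth limits the tRNA rows, most of which had a handful of counts or none, and the solvent, the culture and the library preparation cannot be told apart from the compounds.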
